A study of Mus musculus with 6 samples.

Results

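The genes described here encode the NF-kappaB transcription factor subunits and the IkappaB proteins that bind them, 10 genes chosen by name out of 10698 that probes naming a single gene symbol represent on the array. They fall into canonical subunits (Nfkb1, Rel and Rela), noncanonical subunits (Nfkb2 and Relb) and inhibitor or inhibitor-like members (Nfkbia, Nfkbib, Nfkbie, Nfkbiz and Bcl3). RAW 264.7 cells, a mouse line that resembles macrophages, were grown for 16 hours either untreated or with bacterial lipopolysaccharide (LPS, 100 ng/ml) plus LPS-binding protein (100 pM), which in serum hands LPS on to its receptor complex. The RNAs of treated and untreated cells were labelled with different dyes and hybridised together on 6 arrays of 16281 probes. Treated RNA carried Cy5 on 3 arrays and Cy3 on the other 3, and each orientation had sets numbered 1, 2 and 3. Nothing in the labels says that the sets were separate cultures, so p-values reflect only how much these arrays differ, and that may be technical. All cells came from 1 line, and the ratios give no expression level, so the labelled cell type could not be checked by the presence of macrophage markers.

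NF-kappaB proteins act as dimers that IkappaB proteins hold inactive in the cytoplasm. In the canonical route, LPS receptors activate the IkappaB kinase complex, which marks the classical inhibitors IkappaB alpha, beta and epsilon for destruction and so frees dimers of Rela or Rel with the Nfkb1 product. In the noncanonical route, the kinase encoded by Map3k14 triggers processing of the Nfkb2 precursor, which then acts with Relb. Nfkbiz and Bcl3 encode nuclear IkappaB-like proteins that bind the Nfkb1 and Nfkb2 products on DNA and can raise or lower transcription. Several genes of the system are themselves known targets of NF-kappaB, which makes it a textbook case of feedback in macrophages.

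Because such feedback works through kappaB sites, the sequences just before the starts of member genes are shown first. RefSeq promoter windows of GRCm38.p6, each 250 bases before to 50 after a gene start, were available for 7 of the 10 members, in 9 windows. Nfkb1, Relb and Nfkbiz had none. The kappaB decamer consensus, searched on both strands, was found in windows of 5 of these 7 genes (Nfkb2, Rel, Nfkbia, Nfkbie and Bcl3) and not in those of Rela and Nfkbib. Over all promoter windows 4.51% of 32851 held it, and over all genes with a window 5.14%. A looser pattern of GGG and CC with any 5 bases between them, which every match of the consensus also fits, was in 50.8% of all windows and in 6 of the 7 members, the exception being Nfkbib. The stretches below run 5′ to 3′ on the gene's strand, with bases of a consensus match on either strand in capitals. They are shown for the genes that rose and had a match, and for Rela, the measured member that did not pass the test. Nfkbia had a match but no ratio and is not shown. The stretches were thus picked by the ratios, and a link between matches and rises was not tested.
Rel (chr11:23771030-23771089, minus strand, positions -120 to -61 from the start): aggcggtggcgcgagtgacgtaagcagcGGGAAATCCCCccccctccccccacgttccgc
Nfkb2, first start (chr19:46304677-46304736, plus strand, -60 to -1): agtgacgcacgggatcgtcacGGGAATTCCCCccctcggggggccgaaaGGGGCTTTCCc
Nfkb2, second start (chr19:46305691-46305718, plus strand, -4 to 24): cccctggtattttcGGGACTTTCCtaag
Nfkbie (chr17:45555570-45555629, plus strand, -130 to -71): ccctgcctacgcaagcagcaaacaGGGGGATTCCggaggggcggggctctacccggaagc
Bcl3 (chr7:19822734-19822761, minus strand, -6 to 22): ggcggcagGGGAAGTCCCgctgcccggc
Rela (chr19:5637481-5637540, plus strand, -60 to -1): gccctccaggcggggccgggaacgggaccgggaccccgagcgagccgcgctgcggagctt
In Rel and at the first Nfkb2 start, matches on both strands overlap, which gives the capital runs of 11 bases. The Bcl3 match lay 3 to 12 bases after the start and read on the opposite strand. A match describes letters in the window, and binding was not measured in these data.

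In cells given LPS and its binding protein, 6 of the 7 members with a ratio on all 6 arrays rose and 0 fell. Bcl3 rose most, 6.68-fold, followed by Nfkbiz (3.53-fold) and Nfkbie (2.04-fold). The noncanonical subunits Nfkb2 and Relb rose 1.76-fold and 1.63-fold, and the canonical subunit Rel rose 1.52-fold. Rela was the 1 measured member that did not pass. Each gene value below is a log2 ratio of treated over untreated, the mean of 3 sets with the SD over them (n = 3), where a set is the mean of its 2 dye orientations. Calls are at an adjusted p under 0.05 in limma with Benjamini-Hochberg adjustment over the 9607 genes tested. Of these, 31.4% were called, 16.8% up and 14.6% down, against 85.7% of the measured members called up. The members were chosen with earlier results of these data known, so their share depends in part on that choice. Tested with limma's treat against a fold of 1.5, which 3.81% of all genes passed upward, 3 of the 7 members passed (Bcl3, Nfkbiz and Nfkbie). The median over the 7 members was 0.81 and over all genes -0.01.

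The table does not state its direction. Cy5 over Cy3 is the likely one, because in both orientations the sample descriptions name the Cy5 RNA as test. The orientations had opposite signs before turning, which either direction would give. With the other direction every value here would change sign. Il6, an LPS-induced cytokine, came out 34.4-fold higher in treated cells with the direction used.

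**Figure D1:**
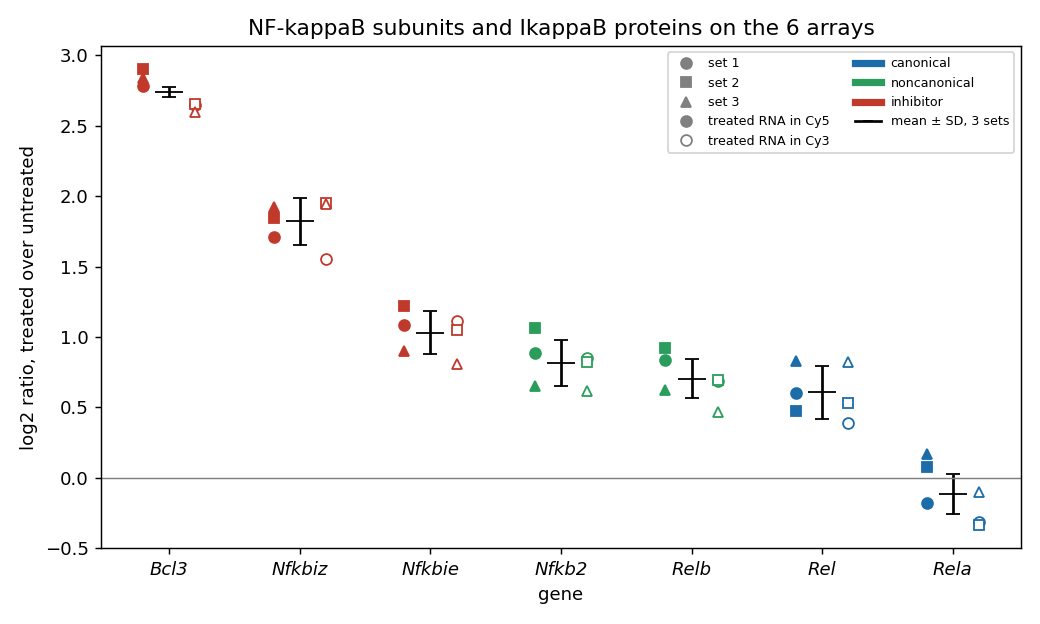
Log2 ratio of treated over untreated cells (vertical axis) for the 7 members with a ratio on all 6 arrays; filled symbols are arrays with treated RNA in Cy5, open symbols those with treated RNA in Cy3, symbol shapes are sets, and black marks are the mean ± SD of 3 sets. Bcl3 lies at 2.60 to 2.91 above all other members, and the Rela arrays lie on both sides of 0.

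Rela encodes the subunit with the main transactivation domain of the canonical dimer. With treated RNA in Cy5 its log2 ratios were -0.18, 0.08 and 0.17 in sets 1 to 3, and with treated RNA in Cy3 they were -0.32, -0.34 and -0.10. Values were above 0 on 2 of 6 arrays, both with treated RNA in Cy5, so the arrays straddled 0. The mean was -0.12 ± 0.14 (adjusted p = 0.358 in limma), with a 95% confidence interval of -0.31 to 0.08, or 0.808- to 1.06-fold of the untreated level. Over the 3 Cy5-treated arrays alone the mean was 0.022, so even the sign of this small value depended on the orientation.

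Rel encodes c-Rel, a canonical subunit found mainly in blood cells. Its complete probe gave 0.60, 0.47 and 0.83 with treated RNA in Cy5 and 0.39, 0.53 and 0.82 with treated RNA in Cy3. All 6 arrays were above 0, with set 3 highest in both orientations. The mean was 0.61 ± 0.19 (1.52-fold, adjusted p = 0.00266 in limma), and the gene did not pass treat against 1.5-fold (adjusted p = 1). A second Rel probe had no ratio in set 1 and was left out of the gene's value. Its 4 ratios were 0.70 and 1.10 with treated RNA in Cy5 and 0.62 and 0.80 with treated RNA in Cy3, again with set 3 higher in each orientation. On every one of the 6 arrays Rel exceeded Rela, by 0.72 ± 0.08.

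The third canonical gene, Nfkb1, encodes the precursor of the DNA-binding partner of Rela and Rel. The platform annotation used here paired no probe with that symbol alone, so it was not analysed here.

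Nfkb2 encodes the precursor that is both an inhibitor and, once processed, the DNA-binding partner of Relb. Its log2 ratios were 0.89, 1.06 and 0.65 with treated RNA in Cy5 and 0.85, 0.82 and 0.61 with treated RNA in Cy3. Set 3 was lowest in both orientations, and no array was near 0. The mean was 0.81 ± 0.16 (1.76-fold, adjusted p = 0.000575 in limma; 0.254 in treat against 1.5-fold). With the set number as a fixed block it passed treat (adjusted p = 0.0333).

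Relb encodes the subunit that pairs mainly with Nfkb2 products. It gave 0.84, 0.92 and 0.62 with treated RNA in Cy5 and 0.68, 0.70 and 0.47 with treated RNA in Cy3. The order of the arrays was much like that of Nfkb2, with set 3 lowest in each orientation. The mean was 0.70 ± 0.14 (1.63-fold, adjusted p = 0.000879 in limma; 1 in treat against 1.5-fold). Nfkb2 exceeded Relb on 6 of 6 arrays, by only 0.11 ± 0.02, and the array ranges of the genes overlapped.

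Nfkbie encodes IkappaB epsilon, a classical inhibitor. Its ratios were 1.09, 1.22 and 0.90 with treated RNA in Cy5 and 1.12, 1.05 and 0.81 with treated RNA in Cy3. As with Nfkb2 and Relb, set 3 was lowest in both orientations. The mean was 1.03 ± 0.15 (2.04-fold, adjusted p = 0.000188 in limma; 0.0158 in treat against 1.5-fold). It no longer passed treat without set 1 (adjusted p = 0.113) or without set 2 (0.0955). Nfkbie was the only classical inhibitor of the 3 with a ratio on all 6 arrays.

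Nfkbia, which encodes IkappaB alpha, a classical inhibitor known to be resynthesised after NF-kappaB activation, had 1 probe with an exact 0 on all 6 arrays. An exact 0 was taken as no ratio given, so nothing follows from it about a change of Nfkbia. Nfkbib, encoding IkappaB beta, had 1 probe with an exact 0 on 4 arrays. Its 2 ratios, both of set 1, were -1.33 with treated RNA in Cy5 and 2.69 with treated RNA in Cy3. They have opposite signs, so no direction can be given for Nfkbib. At least 1 array lacked a ratio for 3 of the 11 member probes and for 15.3% of all probes naming a single symbol.

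Nfkbiz encodes IkappaB zeta, a nuclear protein needed for induction of Il6 and other secondary genes in macrophages. The first of its 2 probes gave 1.08, 1.36 and 1.39 with treated RNA in Cy5 and 0.99, 1.59 and 1.49 with treated RNA in Cy3. The second gave 2.33, 2.33 and 2.45, and 2.12, 2.32 and 2.41. The second probe was higher on all 6 arrays, by 0.74 to 1.25 (1.01 ± 0.17 over the sets), and the ranges of the probes did not overlap. Both passed when each probe was fitted by itself, with means of 1.32 and 2.33 (adjusted p = 0.00015 and 3.17e-06 in limma over 13418 probes). Of those probes 16.9% were called up, and 7 of 8 complete member probes were. The gene value, the mean of both probes, was 1.82 ± 0.17 (3.53-fold, adjusted p = 1.68e-05 in limma). Probe sequences and transcript positions were not analysed here, so which of them better gives the size of the Nfkbiz rise is unknown.

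Bcl3 encodes a nuclear IkappaB-like protein that binds homodimers of the Nfkb1 or Nfkb2 product. Its ratios were 2.79, 2.91 and 2.84 with treated RNA in Cy5 and 2.65, 2.65 and 2.60 with treated RNA in Cy3. All 6 arrays lay above every array of any other member's gene value, and the sets differed least among the members. The mean was 2.74 ± 0.03 (6.68-fold, 95% confidence interval 5.96 to 7.48, adjusted p = 1.66e-06 in limma; 4.14e-06 in treat against 1.5-fold).

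**Figure D2:**
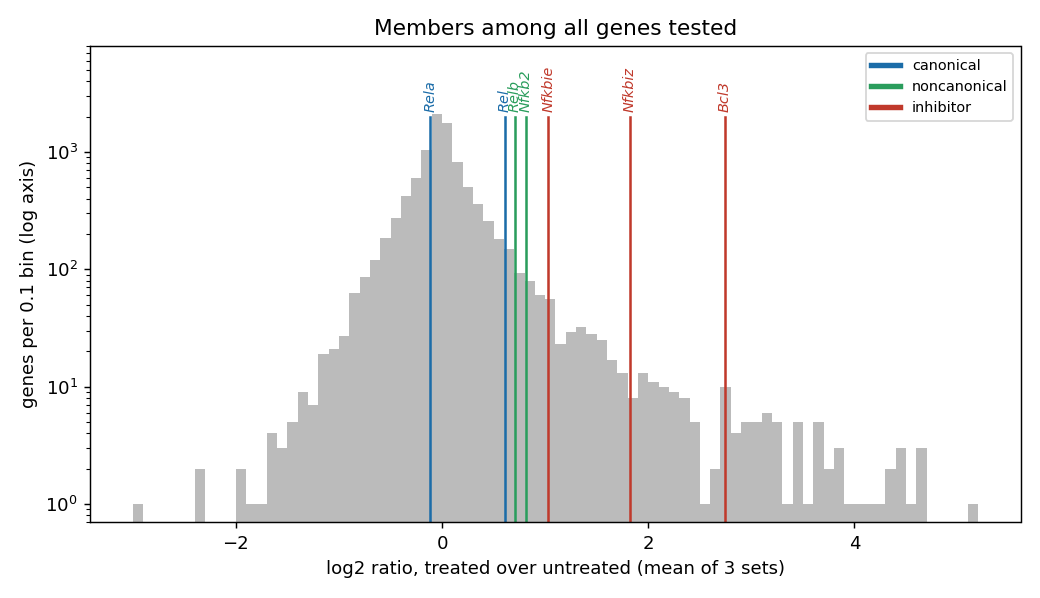
Number of genes per bin of 0.1 in the log2 ratio of treated over untreated cells (log vertical axis) for the 9607 genes tested, with coloured lines at the 7 measured members. Rela at -0.12 lies within the bulk around 0, while Bcl3 at 2.74 ranks 61st from the top.

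Among all 9607 genes ordered from the largest rise, Bcl3 ranked 61st, Nfkbiz 132nd and Nfkbie 338th. Nfkb2 followed at 478, Relb at 587 and Rel at 730, and Rela stood at 6926. At least 2-fold rises were called in 353 genes (3.67%), 3 of them members.

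The order of the members was Bcl3, Nfkbiz, Nfkbie, Nfkb2, Relb, Rel and Rela. The array values of Bcl3 and Nfkbiz did not overlap, with a difference of 0.92 ± 0.15, and those of Nfkbiz and Nfkbie did not either (0.79 ± 0.28). With its first probe alone, however, Nfkbiz would span 0.99 to 1.59 and overlap with Nfkbie at 0.81 to 1.22. Nfkbie, Nfkb2, Relb and Rel each overlapped with the next gene in the order. Nfkbie still exceeded Nfkb2 on 6 of 6 arrays (0.22 ± 0.02), while Relb exceeded Rel on 4 of 6 (0.10 ± 0.33), a difference smaller than its spread between sets. With 3 sets an exact sign-flip test of such a difference cannot go below a two-sided p of 0.25, so none was run.

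By class, 3 of 3 measured inhibitor members, 2 of 2 noncanonical subunits and 1 of 2 measured canonical subunits rose. Of all genes tested, 16.8% were called up, and counts this small are not read as a difference between the classes. The class medians were 1.82 ± 0.17 for the inhibitors, 0.76 ± 0.15 for the noncanonical subunits and 0.25 ± 0.16 for the canonical ones. The inhibitor median exceeded the canonical one by 1.51, 1.71 and 1.51 in sets 1 to 3 (1.58 ± 0.12) and was higher on 6 of 6 arrays. It exceeded the noncanonical median by 0.82, 1.02 and 1.35 (1.06 ± 0.27), again on 6 of 6 arrays. The noncanonical median exceeded the canonical one by 0.69, 0.69 and 0.16 (0.51 ± 0.31). That last difference was positive on all 6 arrays but small in set 3. The classes rest on 2 or 3 genes each, and the inhibitor median is the Nfkbiz value, so it is led by the nuclear IkappaB-like genes and not by the classical inhibitors. That value averages probes with means of 1.32 and 2.33, so the size of both inhibitor differences depends on the probe. In set 1 the first Nfkbiz probe, at 1.04, lay below Nfkbie at 1.10. Class differences with a single Nfkbiz probe were not computed.

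**Figure D3:**
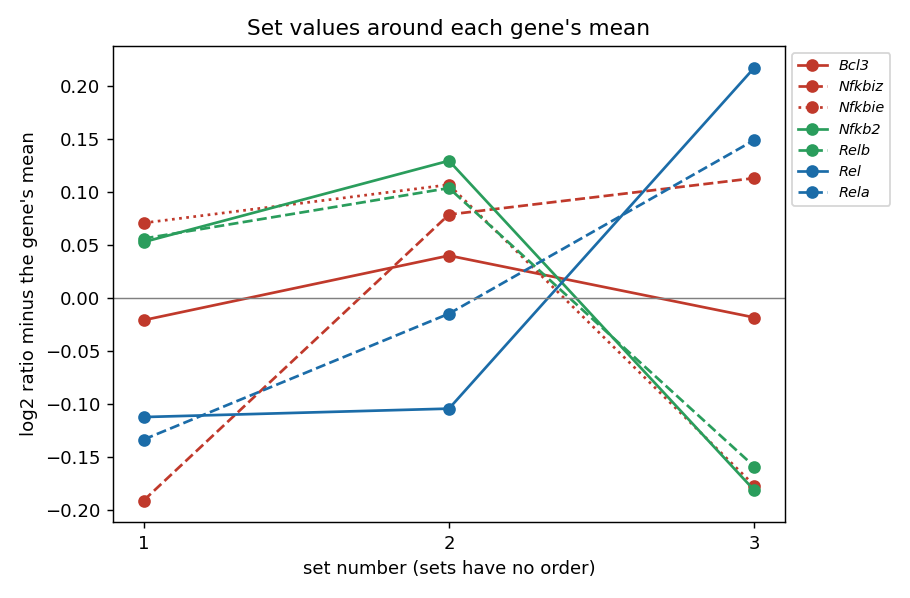
Set value minus the gene's own mean (vertical axis, log2) for sets 1, 2 and 3 and each of the 7 measured members; lines join the values of one gene only to make it traceable. Nfkb2, Relb and Nfkbie dip together in set 3 by 0.16 to 0.18 while Rel and Rela stand above their means there by 0.22 and 0.15.

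The spread between sets ran in 2 directions. In set 3 Nfkb2, Relb and Nfkbie lay below their means (-0.18, -0.16 and -0.18), and Rel, Rela and Nfkbiz lay above theirs (0.22, 0.15 and 0.11). Against the mean of sets 1 and 2, the set 3 array with treated RNA in Cy5 was at -0.32 for Nfkb2, -0.26 for Relb and -0.25 for Nfkbie. The corresponding differences with treated RNA in Cy3 were -0.22, -0.22 and -0.28. For Rel they were 0.29 and 0.36. Each of these 4 genes thus moved the same way on both set 3 arrays, as did Rela (0.22 and 0.23) and Nfkbiz (0.15 and 0.19). Bcl3 stayed within 0.05 of its other sets. Over all genes tested, the set 3 arrays also deviated together (r = 0.570), so a shift in set 3 was not particular to the members. The pattern among the members was seen after the values were known and was not tested.

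Bcl3 and Relb lie on chromosome 7 with 10 other protein-coding genes between them in the RefSeq gene order. Over all genes tested 16.8% were called up and 14.6% down. Of the 9 intervening genes that were measured, 0 rose and 2 fell, and their median log2 ratio was 0.02. With 9 genes these counts cannot be set apart from the shares over all genes. The genes that fell were Apoe, which encodes apolipoprotein E (-0.36 ± 0.16, adjusted p = 0.0175 in limma), and Tomm40, which encodes a mitochondrial import channel (-0.38 ± 0.19, adjusted p = 0.0196). Both lost their calls without set 2 (0.0878 and 0.0989). This stretch was chosen after the values were seen.

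Upstream of the members, genes that activate NF-kappaB were counted beside the 16.8% of all genes called up and the 14.6% called down. Of 25 listed kinases and adaptors, 19 were measured, 8 rose and 3 fell, with a median of 0.04. The falls in this list were near the share of all genes called down. The largest rises were those of Ikbke, an IkappaB kinase relative that also acts on interferon regulatory factors (1.05 ± 0.09, 2.07-fold, adjusted p = 0.000101 in limma), Tank, its adaptor (0.89 ± 0.58, adjusted p = 0.0129; 1.55 in set 3 and 0.57 without it), and Map3k8, a kinase that binds the Nfkb1 precursor (0.73 ± 0.13, adjusted p = 0.000647). Irak1, a kinase of the receptor complex, fell (-0.39 ± 0.01, adjusted p = 0.0053), as did Tab3 (-0.33 ± 0.20, 0.0348) and Tab1 (-0.25 ± 0.08, 0.0375), partners of the kinase Map3k7. With robust variance moderation Tank no longer passed (adjusted p = 0.0893). Tab1 lost its call without set 1, 2 or 3 (0.0959, 0.1 and 0.148) and Tab3 without set 1 (0.189), so that without set 1 Irak1 was the 1 gene of the list that fell.

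The core IkappaB kinase genes did not pass. Ikbkb, the catalytic subunit of the canonical route, was at 0.04 ± 0.06 (adjusted p = 0.759 in limma, 95% confidence interval -0.13 to 0.20), and Ikbkg, the regulatory subunit, was at 0.13 ± 0.09 (0.253, interval -0.05 to 0.31). Map3k14, the kinase of the noncanonical route, was at 0.04 ± 0.11 (0.739, interval -0.14 to 0.22). On the arrays with treated RNA in Cy3 these were at -0.01, -0.04 and -0.02, so no direction can be given for them. Chuk, the other catalytic subunit, had no probe naming it alone and was not analysed here.

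Of 24 negative regulators and turnover genes, 12 were measured. Among these 6 rose and 1 fell, with a median of 0.44, beside 16.8% of all genes called up and 14.6% called down. Usp18 led (2.71 ± 0.30, 6.54-fold, adjusted p = 1.21e-05 in limma), although it is best known as an interferon-induced protease that removes the ubiquitin-like protein ISG15. Traf1, a signalling adaptor, rose 4.16-fold (2.06 ± 0.14, adjusted p = 7.71e-06), and Birc3, a ubiquitin ligase that holds the noncanonical kinase in check, rose 2.84-fold (1.51 ± 0.31, adjusted p = 0.000167). Tnfaip3, encoding the deubiquitinase A20, rose 1.98-fold (0.99 ± 0.08, adjusted p = 0.000121). Cul1, a scaffold of the ligase that tags IkappaB proteins, was the gene that fell (-0.36 ± 0.20, adjusted p = 0.0234), with 1 array of set 2 far below the others at -0.93. Its call was lost without set 2 (adjusted p = 0.0999), where 0 genes of the list fell, and without set 3, 2 did. Nfkbid, a further nuclear IkappaB-like gene, had no probe naming it alone.

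Of 36 known kappaB target genes, 33 were measured, 30 rose and 1 fell, with a median of 1.85 (3.59-fold). Il6 (5.11 ± 0.47, adjusted p = 3.38e-06 in limma), the chemokine Ccl2 (4.69 ± 0.24, 1.49e-06) and the cytokine Il1b (4.63 ± 0.55, 8.4e-06) rose most, and Tnf rose 3.18-fold (1.67 ± 0.19, 3.01e-05). Ccnd1, which encodes cyclin D1, fell slightly (-0.25 ± 0.04, adjusted p = 0.0302), a call that was lost without set 1, 2 or 3 (0.0962, 0.0998 and 0.096). Bcl3 at 2.74 lay above the median of these targets, and Nfkb2, Relb and Rel at 0.81, 0.70 and 0.61 lay below it. The pathway lists were chosen with earlier results of these data known, so both their counts and their medians depend on that choice. Nothing about the members is read from their place beside the target median. Counts in the lists are read only beside the 16.8% of all genes called up and the 14.6% called down.

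**Figure D4:**
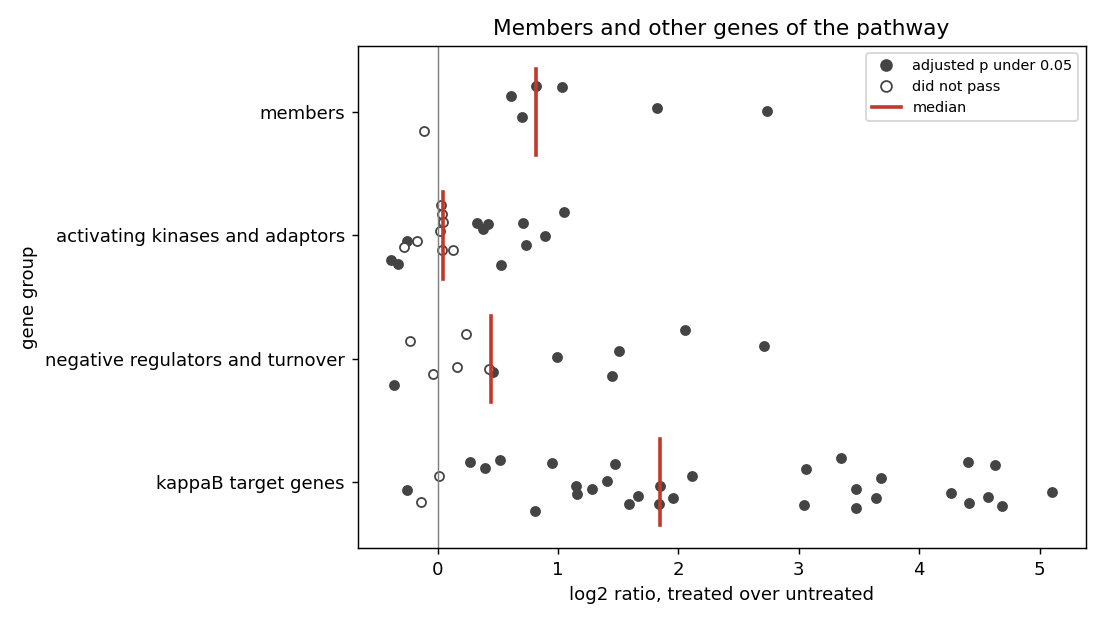
Log2 ratio of treated over untreated cells (horizontal axis) for the 7 measured members and the measured genes of 3 pathway lists, with vertical scatter added for legibility; filled points passed an adjusted p under 0.05, open points did not, and red bars are medians. The medians are 0.81 for the members, 0.04 for the activating genes, 0.44 for the negative regulators and 1.85 for the targets.

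The genes whose 6 array values lay nearest to those of Bcl3, by root mean square difference in log2 ratio, were Slc15a3 (0.136), Lgals9 (0.203) and Cd274 (0.204), a peptide transporter, a galectin and a checkpoint ligand. For Rel, the called member with the smallest rise, they were Tubb2a (0.0977), Mmp19 (0.106) and Tmem217 (0.106). With a single contrast this likeness says little more than that the ratios were of like size.

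Of markers of other cell types, 1 of 4 B cell, 1 of 5 T cell and 1 of 5 fibroblast genes rose and 0 fell. Their ratios ran from -0.14 to 0.54. Among 7 macrophage genes 5 rose and 1 fell (-0.27 to 2.35). Over all genes tested 16.8% were called up and 14.6% down. Counts this small are not read as a difference between the marker lists. All cells came from 1 line, so these counts are not read as shares of cell types. In these bulk samples a change in the share of responding cells and a change of RNA per cell cannot be told apart. The part of either in the members' ratios was not tested.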

How the data were processed

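The authors deposited log2 ratios of the 2 channels of each of 6 arrays, as read from their signs and range. Which scanner, background correction and normalization they used is not given in the sources used here. Exact 0 (9.56% to 12.9% of probes per array) was taken as no ratio. Ratios were turned to treated over untreated by the dye in the labels; turned arrays then correlated across probes at 0.771 to 0.839 within and 0.622 to 0.852 between orientations. Of 13738 probes naming 1 symbol, 11639 had a ratio on all 6 arrays, and averaging them by symbol gave 9607 genes. Both orientations of a set number were averaged, and the 3 set means tested against 0 with limma 3.58.1 in R 4.3.3 (lmFit, eBayes, and treat for a fold of 1.5; Benjamini-Hochberg, threshold 0.05). Summaries used Python 3.11.15. The number of arrays limits the precision.

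In a simulation only 200 of these 9607 genes were given a change. There the fit recovered 37.3%, 71.6% and 92.4% of changes of log2 0.5, 1 and 2. False calls made up 3.6% of the simulated calls. In the real data 31.4% of genes were called, so the simulated shares are not estimates of recovery or false calls in the real data. Members and lists were chosen with earlier results of these data known. Named genes were all members, the 3 largest rises and falls among called genes of each pathway list, 8 genes fixed by name, and the 3 genes nearest to the most and least changed called member. Protein features were not analysed here. Alternatives covered exact zeros, the probe filter, the replicate unit, probe medians, robust moderation, centring, quantile normalization, single orientations and leaving out each set.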

Additional observations from a re-analysis of the deposited data

Results flagged for a closer look

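The Nfkbib probe had ratios of opposite sign on its only 2 arrays, -1.33 with treated RNA in Cy5 and 2.69 with treated RNA in Cy3, both of set 1; the difference was not tested.

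Cul1 had 1 array, that of set 2 with treated RNA in Cy5, at -0.93, apart from the other 5, which ran from -0.40 to -0.09. By chance about 1 in 20 genes shows such a gap.

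Ccl2 differed between dye orientations in a 6-array limma model (adjusted p = 0.0409 for the dye term), with means of 5.30 with treated RNA in Cy5 and 4.08 with treated RNA in Cy3. Among the 7 measured members the smallest adjusted p of the dye term was 0.361, that of Rela.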

How the results depend on the processing

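Under all 14 alternatives 6 members were called up and 0 down, and each of the 6 kept its direction and call, with the highest adjusted p in limma 0.0184, for Rel. Rela stayed uncalled (adjusted p 0.0771 to 0.913) and turned to 0.022 on the Cy5-treated arrays alone. Members past 1.5-fold numbered 2 to 3 when a set was left out and 4 with the set number as a fixed block, where Nfkb2 also passed treat (adjusted p = 0.0333). With exact 0 kept as a ratio of 1, which adds Nfkbib and a Rel probe, the inhibitor median was 1.43, its excess over the canonical median 1.20 and over the noncanonical median 0.67; held to the members measured on all 6 arrays, an alternative chosen after seeing the data, the inhibitor median was again 1.82.

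Negative regulators that fell numbered 2 with no replicate block, 2 with the set number as a random or a fixed block, 0 on the Cy3-treated arrays alone, and 0 to 2 when a set was left out. Activating genes that fell numbered 1 on the Cy5-treated arrays alone and 1 to 3 when a set was left out. Targets that fell numbered 1 on the Cy5-treated arrays alone and 0 each time a set was left out. Ccnd1 lost its call on the Cy5-treated arrays alone (adjusted p = 0.157 in limma), so the target that fell there was another gene. On the Cy3-treated arrays alone Ikbkb was at -0.010, Ikbkg at -0.039 and Map3k14 at -0.015; Ikbkb was at -0.0061 with probes measured in each set, and Map3k14 at -0.018 to 0.083 when a set was left out. The causes were not tested.

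Arrays with the same set number deviated together at r = 0.219, 0.079 and 0.570 in sets 1, 2 and 3, so only a number is known to be shared, and not every array correlated best with its own number. Taking the number as a block changed no member's call against 0; against 1.5-fold it added Nfkb2 as a fixed block and changed none as a random one. How far signals stood above background is unknown here.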
